A study of Mus musculus with 18 samples.

Results

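The miRNAs described here were those that liver RNA yielded early and in every animal. A well-read miRNA was a mouse miRNA assay whose mean threshold cycle (Ct, the PCR cycle at which the signal crosses a fixed line, so that a lower Ct means more miRNA) was below 32 in each of 8 livers. Of 517 mouse miRNA assays on the cards, 174 met this limit, 153 of them on card A and 21 on card B. The members were chosen by their Ct in these same 8 livers, so the high level of these miRNAs is not a result. The limit also left out any miRNA that was rare in 1 group only, or that varied widely near the limit. Just inside it were miR-138, miR-141 and miR-455, with highest Ct of 31.94, 31.86 and 31.76. Just outside it were miR-135a*, miR-455* and miR-99b*, with highest Ct of 32.02, 32.18 and 32.19.

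The livers were from male C57BL/6 pups at postnatal day (PND) 15, 4 control and 4 hypothyroid. The methods of the study state that 1 pup was taken per litter. Dams of the hypothyroid pups drank sugar water with 0.05% methimazole (MMI) and 1% perchlorate from PND 12, and dams of the control pups drank sugar water alone. According to the methods of the study, pups of both groups were injected with PBS shortly before sacrifice. MMI blocks the synthesis of thyroid hormone and perchlorate blocks the uptake of iodide by the thyroid, so the pups lacked hormone for a short time only, and the agents themselves were present as well. Animals 1 and 2 of each group belonged to study 1, and animals 3 and 4 to study 2. The assay was the TLDA (TaqMan low density array), a card of quantitative PCR wells in which single miRNAs are amplified after reverse transcription with pooled stem-loop primers.

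MiRNAs are short RNAs that pair with target mRNAs, mainly through bases 2 to 8 (the seed), and lower their translation or stability. Members of a family share a seed and so can share targets, while members of a genomic cluster are cut from 1 transcript. In liver, miR-122 is the hallmark miRNA of hepatocytes and acts on lipid metabolism, miR-192 and miR-194 are epithelial miRNAs of liver, gut and kidney, and miR-126 marks endothelium.

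Mature sequences were taken from RefSeq (GRCm38.p6), which held 132 of the 174 miRNAs, 30 under the name of the assay and 102 under the newer name of the same arm. They carried 95 different seeds, 18 of which were shared by 2 or more well-read miRNAs. The seed is in capitals below. The let-7 family is shown first because it was the largest group with 1 seed, with 9 members on card A.
let-7a: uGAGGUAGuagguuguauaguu
let-7b: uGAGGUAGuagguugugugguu
let-7c: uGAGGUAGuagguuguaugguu
let-7d: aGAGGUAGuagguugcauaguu
let-7e: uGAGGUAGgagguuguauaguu
let-7f: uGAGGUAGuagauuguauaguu
let-7g: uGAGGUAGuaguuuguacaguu
let-7i: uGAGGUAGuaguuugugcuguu
miR-98: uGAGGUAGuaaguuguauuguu
The members differed from let-7a at 1 position (let-7c, let-7e, let-7f), 2 positions (let-7b, let-7d, let-7g, miR-98) or 4 positions (let-7i), so signal from a neighbour cannot be told apart from that of the named member in these data. Genes for let-7a, let-7d and let-7f lie together on chr13:48536078-48538260 (minus strand), and another gene for let-7f lies beside miR-98 on chrX:151912353-151913250 (plus strand).

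The second largest group shared the seed of miR-17 and is shown because its members were both among the most stable (miR-17) and among the most variable (miR-20b).
miR-17: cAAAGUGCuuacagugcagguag
miR-20a: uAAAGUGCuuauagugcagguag
miR-20b: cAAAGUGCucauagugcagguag
miR-93: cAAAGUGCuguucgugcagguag
miR-106a: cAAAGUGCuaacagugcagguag
miR-106b: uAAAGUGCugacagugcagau
These come from 3 loci. MiR-17 and miR-20a lie with miR-18a, miR-19a, miR-19b and miR-92a on chr14:115043684-115044496 (plus strand), miR-20b and miR-106a with further copies of miR-19b and miR-92a on chrX:52741854-52742563 (minus strand), and miR-93 and miR-106b with miR-25 on chr5:138165332-138165807 (minus strand).

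The last set holds the miRNAs on which the text turns for their level, their stability or a small shift, where RefSeq held them.
miR-192: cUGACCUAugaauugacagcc
miR-19b: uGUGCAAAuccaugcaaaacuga
miR-16: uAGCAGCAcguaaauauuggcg
miR-24: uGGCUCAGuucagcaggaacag
miR-30c: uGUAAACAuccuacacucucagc
miR-345-5p: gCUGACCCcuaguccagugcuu
miR-186: cAAAGAAUucuccuuuugggcu
miR-191: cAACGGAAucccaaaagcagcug
miR-342-3p: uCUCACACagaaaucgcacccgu
miR-181a: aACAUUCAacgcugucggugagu
miR-376b: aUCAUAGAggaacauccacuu
miR-409-3p: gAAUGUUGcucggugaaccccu
miR-31: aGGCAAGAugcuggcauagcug
miR-425: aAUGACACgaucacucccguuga
miR-15b: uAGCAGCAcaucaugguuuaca
miR-690: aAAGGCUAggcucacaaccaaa
MiR-16 and miR-15b share a seed, and their genes lie within chr3:69009775-69009939 (plus strand). MiR-191 and miR-425 lie within chr9:108568325-108568811 (plus strand). MiR-376b and miR-409-3p lie in the large miRNA cluster of chr12:109709065-109743784 (plus strand).

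Levels were first set against U6, the small nuclear RNA read in 4 wells of each card. Delta Ct is the Ct of a miRNA minus the mean U6 Ct of the same card and animal, in cycles, and 1 cycle stands for 1 unit of log2. On card A the mean U6 Ct was 18.72, 18.99, 19.08 and 19.58 in the controls, in order of animal number, and 19.00, 18.32, 19.13 and 18.91 in the hypothyroid livers. The groups overlapped, and they differed by -0.25 cycles (exact two-sided permutation test over 70 assignments, p = 0.429). On card B the U6 difference was -0.24 cycles (exact permutation p = 0.400). The 4 U6 wells of a card had an SD between 0.0306 and 0.202 cycles.

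The mean Ct of the well-read miRNAs, used as the other reference, moved further on card A. It was 26.55, 26.72, 26.55 and 27.03 in the controls and 26.11, 25.95, 26.24 and 26.57 in the hypothyroid livers. Only hypothyroid animal 4 reached into the range of the controls, and the difference was -0.49 cycles (exact permutation p = 0.0857). On card B it was -0.13 cycles (exact permutation p = 0.571). The other endogenous controls of card A, which are small nucleolar RNAs and the Y1 RNA, averaged 25.18 ± 0.295 cycles in controls and 24.66 ± 0.185 in hypothyroid livers (SD, n = 4 each), a difference of -0.51 (exact permutation p = 0.0286, the smallest that 4 against 4 allows). On card B the other endogenous controls differed by -0.008 (exact permutation p = 0.971), but they were not the same set. There Y1 was left out, as it was not read in every well, and snoRNA429 was on card B only. Y1 differed by -1.13 cycles on card A and by -0.53 in the wells read on card B. The other controls of card A, snoRNA135, snoRNA202 and U87, differed by -0.40, -0.30 and -0.23, nearer to U6. The average of -0.51 thus leaned on Y1. On card B snoRNA135, snoRNA202 and U87 differed by -0.03, 0.05 and -0.15, and snoRNA429 by 0.11. The choice of reference thus set the middle of all changes: the median change of the 174 miRNAs, hypothyroid minus control on the log2 scale, was 0.16 against U6, where 117 were above 0 and 57 below, and -0.07 against the mean of the well-read miRNAs, where 77 were above and 97 below. On a given card the references differ by a constant, so the change of every card A miRNA was 0.24 lower against the mean than against U6, and that of every card B miRNA 0.11 higher. A card A change between 0 and 0.24 against U6 therefore turned its sign. Against the mean of the well-read miRNAs, the changes of these miRNAs on each card average 0 by construction. A median near 0 against that reference is therefore not a result.

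**Figure D1:**
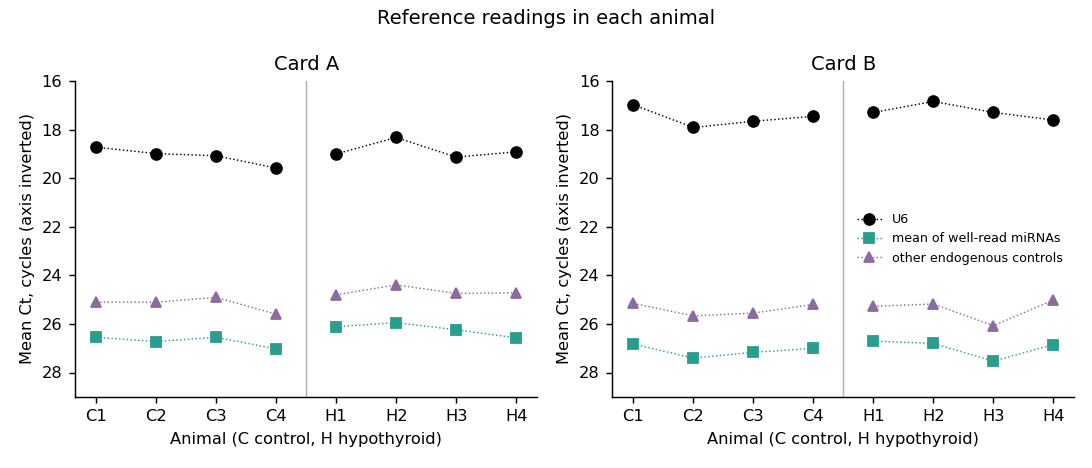
Mean Ct of U6, of the well-read miRNAs and of the other endogenous controls in each animal (C, control; H, hypothyroid) on card A (left) and card B (right), in cycles, with the axis inverted so that more RNA is higher. On card A the well-read miRNAs and the other controls were read earlier in hypothyroid than in control livers by 0.49 and 0.51 cycles, and U6 by 0.25. The value of 0.51 leaned on Y1, which differed more than each of the other controls of card A. The set of other controls differed in part between the cards.

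For most well-read miRNAs of liver the difference between groups was under 0.5 cycles, and 0 passed an adjusted threshold. Limma was fitted to minus delta Ct of the 336 mouse miRNAs read in 2 or more animals of each group, and p-values were adjusted over all of them by the Benjamini-Hochberg method. Against U6, 0 of 174 well-read miRNAs had an adjusted p below 0.1 (background over all miRNAs tested 0%), and the smallest adjusted p by limma was 0.604. An unadjusted p below 0.05 was seen for 4 of the 174 (background 6.55%). All 4 were higher in hypothyroid livers (background 4.76%) and 0 were lower (background 1.79%). The share of well-read miRNAs past this line, 2.30%, was not above that of all miRNAs. The F-test of the study's methods, run here on delta Ct, placed 3 well-read miRNAs below 0.05 (background 1.79%, or 6 of 336) and 0 below an adjusted p of 0.1. Against the mean of the well-read miRNAs, 0 had an adjusted p below 0.1 (background 0%), with 0.592 as the smallest adjusted p by limma. An unadjusted p below 0.05 was seen for 5 (background 5.06%), of which 1 was higher (background 2.98%) and 4 were lower (background 2.08%). There the same F-test placed 5 below 0.05 (background 2.08%, or 7 of 336) and 0 below an adjusted p of 0.1. The count against U6 rested on single animals, being 0 without hypothyroid animal 3 (13 of 326 miRNAs tested) and 14 without hypothyroid animal 2 (28 of 314).

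A missed threshold does not show that a level was the same, so the intervals were also counted. Against U6, the 95% interval of the change lay wholly between -1 and 1 (between a halving and a doubling) for 68 miRNAs, or 39.1%. With the mean of the well-read miRNAs as reference it did so for 87, or 50.0%. Of the 162 other miRNAs tested, 0 and 6 had such an interval, but the limit on Ct itself favours narrow intervals, so this contrast is a description. The estimated change was under 0.5 in either direction for 66.7% of the 174 against U6 and for 76.4% against the mean. It passed 1 for 10 against U6, 8 upward and 2 downward (miR-7a* at -1.14 and miR-532-5p at -1.002), and for 9 against the mean, 6 upward and 3 downward (miR-532-5p at -1.25, miR-340-3p at -1.15 and miR-7a* at -1.03). The groups did not overlap for 2 miRNAs that were higher (miR-181a and miR-410; background 1.19%) and 1 that was lower (miR-805; background 1.98%) against U6. With the mean as reference 4 were higher (miR-125b-5p, miR-181a, miR-376b and miR-690; background 1.98%) and 9 lower (background 4.76%).

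**Figure D2:**
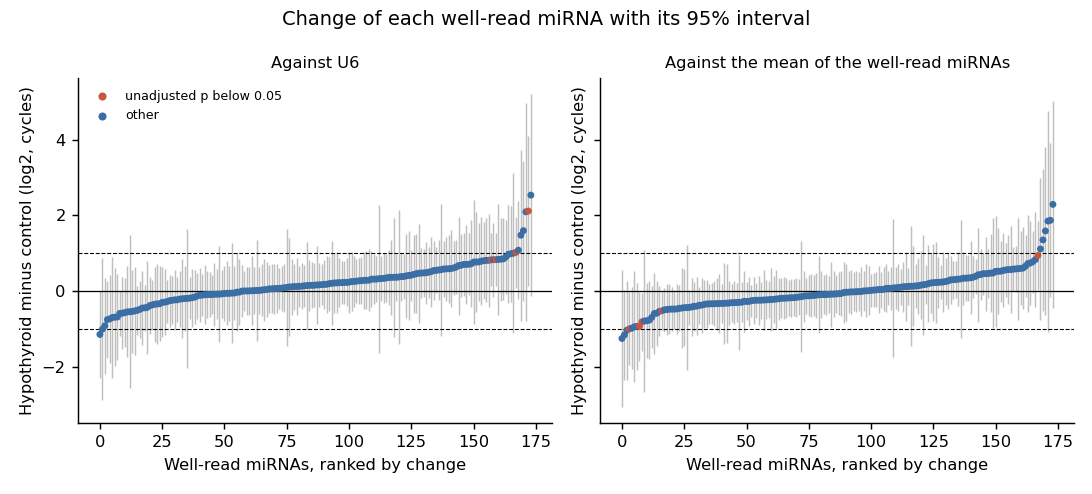
Change of each of the 174 well-read miRNAs, hypothyroid minus control in log2 units, with its 95% interval from limma, ranked from lowest to highest, against U6 (left) and against the mean of the well-read miRNAs (right). Dashed lines mark -1 and 1, and red points have an unadjusted p below 0.05 (4 and 5 miRNAs).

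The 10 miRNAs with the lowest mean delta Ct were, in order, miR-122, miR-126-3p, miR-30c, miR-19b, miR-126-5p, miR-16, miR-24, miR-30b, miR-17 and miR-192. Assays differ in efficiency, so this is an order of readings and not of molecules. MiR-122 had a delta Ct of 0.52, 0.01, -0.38 and -0.61 in controls and 0.30, 0.12, -0.51 and -0.52 in hypothyroid livers. The groups covered nearly the same range, and in both the animals of study 1 were read later than those of study 2. Its change was 0.04 against U6, a ratio of 1.03 with a 95% interval from 0.583 to 1.81, and -0.20 against the mean of the well-read miRNAs.

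MiR-126-3p, an endothelial miRNA, had a delta Ct of 0.91, 0.70, 0.58 and 0.73 in controls and 0.48, 0.87, 0.30 and 0.37 in hypothyroid livers. Its change was 0.23 (interval -0.34 to 0.79) against U6 and -0.02 (-0.53 to 0.50) against the mean. The other arm of its hairpin, miR-126-5p, was read more variably, at 2.86, 2.93, 1.66 and 2.36 in controls and 1.996, 2.49, 0.74 and 1.20 in hypothyroid livers. The 2 hypothyroid animals of study 2 were the highest in level for both arms, and the change of miR-126-5p was 0.85 (-0.25 to 1.94) against U6 and 0.60 (-0.37 to 1.58) against the mean.

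MiR-192 had a delta Ct of 3.40, 3.32, 3.16 and 3.15 in controls and 3.67, 3.56, 3.03 and 3.67 in hypothyroid livers, so 3 hypothyroid animals were read later than every control and hypothyroid animal 3 earlier than all. The change was -0.23 (-0.82 to 0.37) against U6. Relative to the mean of the well-read miRNAs it was -0.47 (-0.98 to 0.04), the groups did not overlap, and the adjusted p by limma was 0.592. MiR-194 has a gene beside miR-192 on chromosome 19 and another on chromosome 1, with the same mature sequence. Its reading, which cannot be assigned to either gene, had a change of -0.09 against U6 and -0.33 against the mean.

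Among the other highly read miRNAs, miR-24 had a delta Ct of 2.76, 2.81, 2.30 and 2.40 in controls and 1.72, 2.39, 2.01 and 2.22 in hypothyroid livers, a change of 0.48 (-0.14 to 1.11) against U6 and 0.24 (-0.21 to 0.69) against the mean. The groups overlapped through hypothyroid animal 2. For miR-30c, miR-19b, miR-16, miR-30b and miR-17 the change against U6 lay between 0.08 (miR-17) and 0.16 (miR-30c), and against the mean between -0.17 (miR-17) and -0.09 (miR-30c). All 5 intervals lay between -1 and 1 against both references.

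The spread between animals of 1 group, pooled over both groups, had a median of 0.43 cycles against U6, with 102 of 174 miRNAs under 0.5 and 16 over 1. With the mean of the well-read miRNAs as reference the median was 0.35, and 138 miRNAs had a smaller spread than against U6. This reference is made of the same readings, which alone can lower the spread. The spread was larger at later cycles: it was 0.33 over the 33 miRNAs with a mean Ct below 24, 0.40 over the 79 between 24 and 28 and 0.62 over the 62 from 28 upward, all as medians against U6. It was 1.18 for the 78 other miRNAs read in all 8 animals. The limit on Ct favours a small spread, so these values are a description. Of 13 well-read miRNAs read in 2 wells of card B, the wells differed with a pooled SD of 0.226 cycles over 104 pairs, below the median spread of 0.60 between animals for the same miRNAs against U6.

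**Figure D3:**
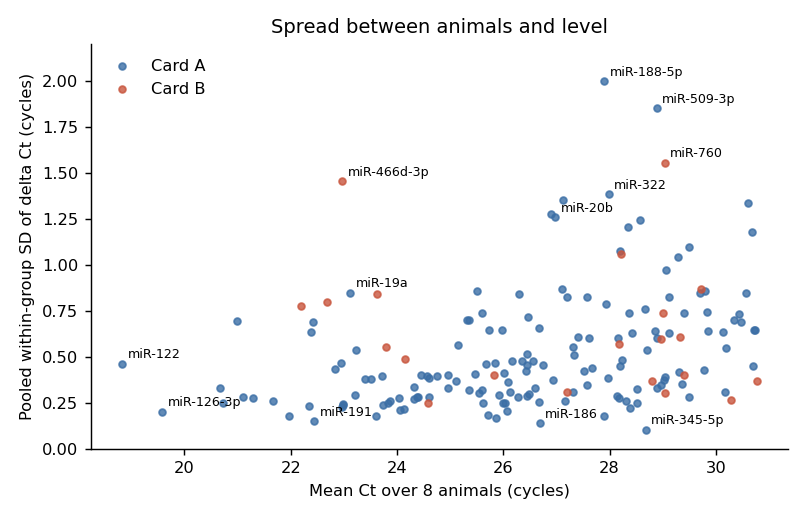
Pooled within-group SD of delta Ct against U6 (cycles) by mean Ct over 8 animals for the 174 well-read miRNAs on card A (blue) and card B (red). Most miRNAs lay below 0.5 cycles, and miR-188-5p, miR-509-3p and miR-760 lay above 1.5.

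The 5 smallest spreads against U6 were those of miR-345-5p, miR-186, miR-191, miR-342-3p and miR-17. MiR-345-5p had a delta Ct of 9.66, 9.71, 9.70 and 9.60 in controls and 9.88, 9.57, 9.73 and 9.84 in hypothyroid livers, with a pooled SD of 0.10. MiR-186 had 7.89, 7.80, 7.56 and 7.65 in controls and 7.58, 7.88, 7.67 and 7.74 in hypothyroid livers, with a pooled SD of 0.14. In both the groups overlapped widely, and the changes were -0.09 (-0.60 to 0.43) and 0.01 (-0.52 to 0.53) against U6. MiR-191, miR-342-3p and miR-17 had changes of 0.17, 0.13 and 0.08 against U6 and -0.07, -0.12 and -0.17 against the mean. When the mean of the well-read miRNAs was the reference, the pooled SD was 0.30 for miR-345-5p, at rank 65 of 174, and 0.16 for miR-186, at rank 8.

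The 5 largest spreads were those of miR-188-5p, miR-509-3p, miR-760, miR-466d-3p and miR-322. MiR-188-5p had a delta Ct of 10.86, 10.10, 8.55 and 10.41 in controls and 9.43, 10.74, 6.30 and 5.07 in hypothyroid livers. MiR-509-3p had 11.59, 11.51, 10.09 and 11.57 in controls and 10.47, 11.12, 6.96 and 6.07 in hypothyroid livers. In both, the hypothyroid animals of study 2 were read more than 2 cycles before all other animals, while those of study 1 lay within the range of the controls. MiR-760 had 12.51, 13.18, 12.09 and 11.82 in controls and 12.40, 12.90, 10.01 and 8.37 in hypothyroid livers, with the same 2 animals lowest in delta Ct. MiR-466d-3p had a delta Ct of 2.26 in hypothyroid animal 4 and from 5.36 to 7.03 in the other 7. MiR-322, from a cluster on the X chromosome, went the other way, with 11.94 in hypothyroid animal 4 and from 7.59 to 9.52 in the others. The changes of these 5 were 2.09, 2.54, 1.48, 1.00 and -0.54 against U6 and 1.85, 2.29, 1.59, 1.12 and -0.79 against the mean, and the interval of each included 0.

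All 9 let-7 members were well read. Against U6 their changes lay between -0.68 and 0.24 with a median of 0.05, beside 0.21 over all miRNAs tested, and 0 of 9 had an unadjusted p below 0.05. Let-7g, the most highly read, had a delta Ct of 4.24, 4.09, 3.82 and 4.08 in controls and 4.10, 4.27, 3.59 and 3.95 in hypothyroid livers, and a change of 0.08 (-0.51 to 0.68). Let-7b, let-7c, let-7d, let-7e and let-7f had changes between -0.05 and 0.24, and let-7i -0.21. The lowest changes belonged to let-7a, at -0.68 (-1.97 to 0.60), and miR-98, at -0.53 (-1.63 to 0.56). Let-7a had a delta Ct of 7.43, 7.15, 7.02 and 6.36 in controls and 7.02, 6.88, 7.52 and 9.27 in hypothyroid livers. The hypothyroid animals of study 1 lay within the controls and those of study 2 were the latest of all 8, and the same held for miR-98, at 12.14 and 12.84 beside 10.64 to 11.53 in the other 6. With the mean of the well-read miRNAs as reference all 9 changes were below 0, from -0.93 to -0.01, with a median of -0.20 beside 0.00 over all miRNAs tested. The sign of the family therefore depended on the reference. Hypothyroid animal 4 alone was read later than the rest for let-7i, at 6.72 beside 5.52 to 5.78.

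The miR-17 family had 6 of 6 members well read. Against U6 the changes lay between -0.18 (miR-93) and 1.60 (miR-20b), with a median of 0.15 and 5 of 6 above 0. With the mean as reference they lay between -0.43 and 1.35, with 2 of 6 above 0, and 0 of 6 had an unadjusted p below 0.05 by either reference. MiR-17 had a delta Ct of 3.18, 3.24, 2.97 and 2.75 in controls and 2.97, 3.10, 2.83 and 2.95 in hypothyroid livers. MiR-20a and miR-106b had changes of 0.23 and 0.06, with overlap between groups. MiR-20b had a delta Ct of 8.68, 9.29, 8.52 and 8.73 in controls, 8.44 and 8.98 in the hypothyroid animals of study 1, and 5.78 and 5.64 in those of study 2. The last pair was read before every other animal, and the change over all 8 was 1.60 (-0.25 to 3.45) against U6 and 1.35 (-0.52 to 3.23) against the mean. MiR-106a, of the same X cluster, had 3.28 and 3.24 in that pair and 3.92 to 4.69 in the other 6.

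The miR-17 to 92 cluster of chromosome 14 was well read in all 6 members, with changes against U6 from -0.09 (miR-92a) to 1.08 (miR-19a), from -0.33 to 0.84 against the mean, and 0 of 6 at an unadjusted p below 0.05. MiR-19a had a delta Ct of 5.06, 5.05, 4.15 and 4.52 in controls and 4.41, 4.74, 2.58 and 2.73 in hypothyroid livers, again with the hypothyroid animals of study 2 apart. MiR-19b, which shares its seed, had a change of 0.12 (-0.48 to 0.73) against U6 and -0.12 (-0.59 to 0.35) against the mean. The 3 members of the miR-106b to 25 cluster had changes of -0.18 to 0.26, and all 3 intervals lay between -1 and 1.

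**Figure D4:**
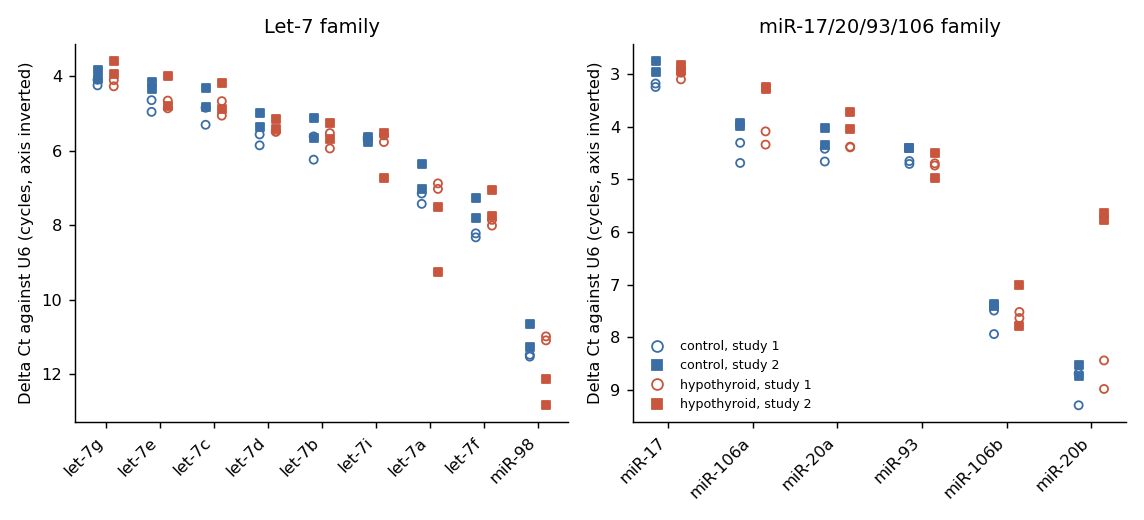
Delta Ct against U6 (cycles, axis inverted so that more miRNA is higher) of the let-7 family (left) and the miR-17 family (right) in each animal. Blue is control and red hypothyroid, and open circles are study 1 and filled squares study 2. The red squares of miR-20b, at 5.78 and 5.64, stand above all other animals, and 1 red square of let-7a, at 9.27, below them.

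The miR-30 family, of which miR-30c and miR-30b are among the most highly read, had 5 of 5 members above 0 against U6, from 0.13 (miR-30b) to 0.85 (miR-30e), and 3 above 0 against the mean. The miR-29 family (3 members), known for its action on collagen mRNAs, lay between 0.34 and 0.59 against U6 and between 0.10 and 0.34 against the mean. The miR-26 pair lay at 0.56 and 0.60 against U6 and at 0.32 and 0.36 against the mean. The family of miR-99 and miR-100 (3 members) lay between 0.29 and 0.35 against U6, the miR-125 family (3 members) between 0.14 and 0.64, the miR-148 family with miR-152 (3 members) between 0.12 and 0.68 and the miR-130 and miR-301 family (4 members) between 0.16 and 0.82. Relative to the mean these 4 families lay between 0.05 and 0.11, -0.10 and 0.39, -0.13 and 0.43, and -0.09 and 0.57, so 2 of 3 members of the miR-125 family and 1 member each of the last families turned their sign. Of these 23 miRNAs 0 had an unadjusted p below 0.05 against either reference. The miR-23/27/24 clusters had 4 of 5 members well read, with changes from -0.29 (miR-27b) to 0.55 (miR-27a) against U6 and from -0.53 to 0.30 against the mean. MiR-103 and miR-107, which share a seed, had changes of -0.23 and 0.26 against U6 and -0.47 and 0.01 against the mean, and miR-101a and miR-101b (card B) of 0.71 and -0.38 against U6 and 0.46 and -0.27 against the mean. MiR-222 and miR-10a had changes of 0.27 and 0.28 against U6 and 0.03 and 0.04 against the mean, while miR-221 and miR-10b were not well read.

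The family of miR-15, miR-16 and miR-195 had members on both sides of 0. MiR-16, its most highly read member, had a delta Ct of 2.37, 2.30, 1.96 and 2.07 in controls and 2.004, 2.53, 1.69 and 2.10 in hypothyroid livers, a change of 0.09 (-0.54 to 0.72) against U6. MiR-195 was higher at an unadjusted p below 0.05, with 1.03 (0.09 to 1.96) against U6, and lay at 0.78 (-0.04 to 1.60) against the mean. MiR-15a, miR-15b and miR-322 lay at -0.52, -0.68 and -0.54 against U6, and miR-497, of 1 cluster with miR-195, at -0.05. Relative to the mean, 5 of the 6 were below 0. In miR-15a and miR-15b hypothyroid animal 4 stood apart, at 11.16 beside 8.90 to 9.51 and at 9.23 beside 6.75 to 7.55.

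Seeds, clusters and hairpins were assigned only to the 132 well-read miRNAs that RefSeq held. Among these, pairs that share a seed differed in their changes by a median of 0.29 (84 pairs, against the mean of the well-read miRNAs). The median was 0.43 over all 15051 pairs of the 174 well-read miRNAs. Pairs with miR-195 or miR-30b were thus not among the 84, and the let-7 family, with 9 members, gave more of them than any other family. Pairs of 1 genomic cluster differed by 0.45 (170 pairs), and the 2 arms of 1 hairpin by 0.45 (11 pairs). Not counted were miR-195 with miR-497, and the arms miR-126-3p and miR-126-5p, at -0.02 and 0.60 by the same reference. The pairs counted share members and are given as a description. MiR-93 and miR-93* lay closest among the arms, at -0.43 and -0.47 by that reference, and miR-30e and miR-30e* farthest, at 0.61 and -0.08.

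The 4 miRNAs with an unadjusted p below 0.05 against U6 were miR-181a, miR-376b, miR-195 and miR-409-3p, and for each the adjusted p by limma was 0.604. MiR-181a, known for its part in lymphocyte development, had a delta Ct of 10.38, 10.27, 10.23 and 10.81 in controls and 9.37, 10.12, 9.16 and 9.70 in hypothyroid livers. The groups did not overlap, and the change was 0.83 (0.14 to 1.53), or 1.78-fold, against U6 and 0.59 (-0.02 to 1.19) against the mean of the well-read miRNAs. MiR-376b, from the imprinted cluster of chromosome 12, had 10.73, 11.10, 10.92 and 10.46 in controls and 10.00, 9.87, 9.51 and 10.52 in hypothyroid livers, and overlapped through hypothyroid animal 4. Its change was 0.83 (0.13 to 1.53) against U6 and 0.58 (-0.0034 to 1.17) against the mean, where the groups did not overlap. MiR-195 had 7.13, 6.73, 6.34 and 6.59 in controls and 5.82, 6.63, 4.98 and 5.25 in hypothyroid livers, and overlapped through hypothyroid animal 2. MiR-409-3p, of the same cluster as miR-376b, had 9.31, 9.45, 9.29 and 8.78 in controls and 8.14, 9.13, 6.14 and 4.96 in hypothyroid livers, with overlap through hypothyroid animal 2 and a change of 2.12 (0.14 to 4.09) against U6 and of 1.87 (-0.16 to 3.90) against the mean. Its change against U6 was 0.75 within study 1 and 3.48 within study 2.

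The 5 with an unadjusted p below 0.05 against the mean of the well-read miRNAs were miR-151-3p, miR-690, miR-31, miR-425 and miR-15b, and for each the adjusted p by limma was 0.592. Relative to that mean, miR-31 had a Ct of -2.71, -2.79, -2.66 and -2.51 in controls and -1.83, -2.48, -2.19 and -2.09 in hypothyroid livers. All hypothyroid animals were read later than all controls, and the change was -0.52 (-1.02 to -0.01), with -0.27 (-0.85 to 0.30) against U6. Its other arm, miR-31*, had a change of -0.39 against the mean. MiR-151-3p had 2.09, 1.28, 1.99 and 1.94 in controls and 2.33, 2.14, 2.77 and 3.30 in hypothyroid livers, a change of -0.81 (-1.57 to -0.04) without overlap. MiR-690 had 1.93, 3.44, 2.42 and 1.80 in controls and 1.20, 1.74, 1.25 and 1.64 in hypothyroid livers, a change of 0.94 (0.04 to 1.85) without overlap. MiR-425 had a change of -0.99 (-1.96 to -0.02), with overlap through hypothyroid animal 2, and miR-191 of the same transcript one of -0.07. MiR-15b had a change of -0.92 (-1.83 to -0.01), and of -0.55 without hypothyroid animal 4. Their changes against U6, from -0.75 (miR-425) to 0.83 (miR-690), did not reach an unadjusted p of 0.05.

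The changes were also computed within each study. The median change against U6 was 0.33 within study 1 and 0.04 within study 2, and against the mean of the well-read miRNAs -0.06 and -0.03. The last 2 values were held near 0 by that reference, so they do not show that the studies matched. Of 174 miRNAs, 105 had the same sign in both studies against U6 (83 higher, 22 lower) and 96 against the mean (40 higher, 56 lower). In a limma fit with a treatment by study term over 309 miRNAs, 0 well-read miRNAs had an adjusted p below 0.1 for that term against U6 (background 0.971%) and 16 an unadjusted p below 0.05 (background 12.3%). With the mean as reference, 1 had an adjusted p below 0.1 (background 1.94%), which was miR-20b, and 22 an unadjusted p below 0.05 (background 14.9%). MiR-20b had a change of -0.14 in study 1 and 2.84 in study 2, a difference of 2.98 ± 0.536 (SE; adjusted p by limma 0.0875). With undetermined wells set to 40 cycles, 0 well-read miRNAs passed that threshold. Chosen after the values were seen, the pairs of animals of 1 group and 1 study were each set against the other 6 animals. The hypothyroid pair of study 2 lay wholly above or wholly below the other 6 for 49 miRNAs against the mean (23 higher, 26 lower), the hypothyroid pair of study 1 for 24, and the control pairs of study 1 and study 2 for 16 and 17. By U6 the hypothyroid pair of study 2 did so for 45 (31 higher, 14 lower) and the control pair of study 1 for 39 (2 higher, 37 lower), while the hypothyroid pair of study 1 did so for 14 and the control pair of study 2 for 10. The same count was not made over all miRNAs, so these numbers are a description and not a trait of the well-read miRNAs.

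**Figure D5:**
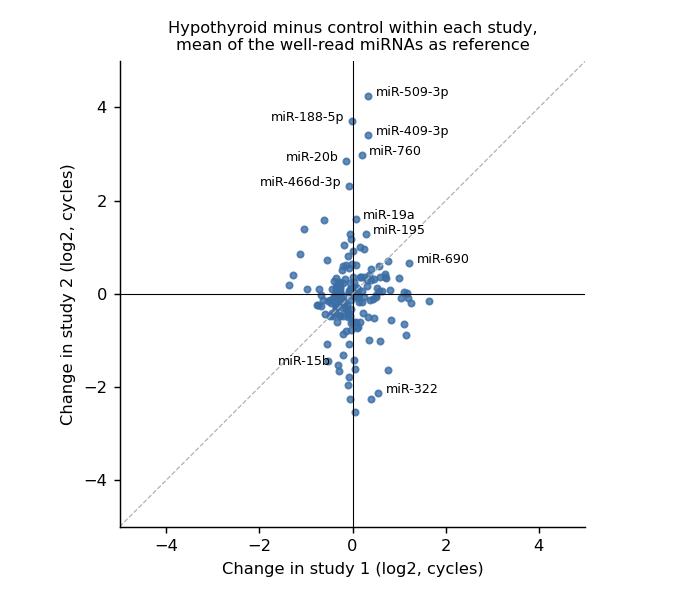
Change of each well-read miRNA, hypothyroid minus control in log2 units against the mean of the well-read miRNAs, in study 1 (horizontal) and study 2 (vertical), each with 2 animals per group. The dashed line marks equal changes, and miR-509-3p, miR-188-5p, miR-409-3p and miR-20b lay near 0 in study 1 and between 2.84 and 4.24 in study 2.

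The day of the run moved with study and group. Run names placed the animals on 4 days, with controls 1 and 2 on the first, hypothyroid animal 1 on the second, control 3 and hypothyroid animal 2 on the third and the other 3 on the fourth. Within the third day the median difference of the 174 miRNAs against U6 was -0.23, and within the fourth it was 0.02. With run day as a block, an alternative added after the data were seen, the median change was -0.05 and 0 well-read miRNAs had an unadjusted p below 0.05 against either reference. The part of run day in the changes cannot be told apart from that of the treatment for the animals of the first days.

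Markers of cell types were also read, but the makeup of the samples was not measured. In such readings fewer cells of a type and less RNA per cell cannot be told apart. The 5 hepatocyte markers were all well read, with changes against U6 from -0.23 to 0.71 and a median of 0.04 (-0.47 to 0.46 and -0.20 against the mean), and their mean delta Ct per animal ranged from 3.85 to 4.47 in controls and from 3.52 to 4.41 in hypothyroid livers. The 2 endothelial markers ranged from 1.12 to 1.88 and from 0.52 to 1.68. Of 6 blood cell markers 4 were well read, with changes from -0.25 (miR-142-3p) to 0.39 (miR-150) against U6 and from -0.49 to 0.14 against the mean, and over the 5 read in all animals the mean delta Ct ranged from 7.70 to 8.05 in controls and from 7.40 to 8.12 in hypothyroid livers. The remaining one, miR-486, had 8.53 to 9.14 in controls. It had 6.83, 7.79 and 12.82 in hypothyroid animals 1, 2 and 3 and was not read in animal 4. Of 5 mesenchymal and smooth muscle markers 4 were well read, with changes from -0.08 (miR-214) to 0.71 (miR-199a-3p) against U6, from -0.32 to 0.46 against the mean, and ranges of 6.63 to 6.97 and 5.45 to 7.45. Hypothyroid animals 1 and 3 were the highest in level for miR-143, miR-145 and miR-199a-3p, but for miR-214 animal 3 (8.48) lay within the controls. Hypothyroid animal 4 was the lowest in level for miR-143 (7.83) and miR-214 (10.23). Of 5 biliary markers 4 were well read, with changes from -0.09 to 0.33 against U6 and from -0.34 to 0.09 against the mean. The 4 skeletal muscle markers were not well read, and over the 3 read in all animals their mean delta Ct ranged from 9.99 to 13.90 in controls and from 3.10 to 12.60 in hypothyroid livers. MiR-375 of the pancreas was well read, with 6.78 in hypothyroid animal 1 and 9.04 to 10.29 in the others, while miR-216a, miR-216b and miR-217 were read in 0, 2 and 1 controls and in 1, 3 and 1 hypothyroid animals. Of the brain markers miR-124 was well read, with a change of 0.10 against U6 and -0.14 against the mean, and miR-9 was not. The part of these markers in the changes was not tested.

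Of 11 miRNAs with known roles in lipid metabolism, 9 were well read, with changes against U6 from -0.29 (miR-27b) to 0.48 and a median of 0.12 (-0.53 to 0.23 and -0.09 against the mean), and 0 had an unadjusted p below 0.05. MiR-378, which is encoded within the gene of a coactivator of mitochondrial metabolism, had a delta Ct of 6.75, 6.31, 6.23 and 5.95 in controls and 4.85, 6.04, 7.64 and 6.26 in hypothyroid livers, so that its highest and its lowest animal were both hypothyroid. Of 8 miRNAs linked to hypoxia, growth and regeneration, 6 were well read, with changes from 0.01 (miR-21) to 0.56 (miR-26a) against U6, where 6 of 6 were above 0, and from -0.24 to 0.32 against the mean, where 3 were, and 0 had an unadjusted p below 0.05. MiR-21 had a delta Ct of 5.39, 5.07, 4.83 and 4.98 in controls and 5.14, 5.28, 4.61 and 5.21 in hypothyroid livers, with a ratio of 1.01 and an interval from 0.652 to 1.55. MiR-210, a target of hypoxia-inducible factor, had a change of 0.23 (-0.34 to 0.80) against U6 and -0.01 (-0.56 to 0.54) against the mean.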

How the data were processed

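Liver RNA of 8 animals was reverse transcribed with rodent Megaplex pools A and B and run on TaqMan rodent miRNA arrays A and B. Deposited by the authors were a Ct for every well, in cycles, and a delta Ct against U6, which is on a log2 scale. The tables of their own comparison (F statistic, p, q and fold change) and the mRNA arrays were not used here. Wells were averaged per card, undetermined wells were missing, and minus delta Ct was fitted with limma 3.58.1 in R 4.3.3. Thresholds were an adjusted p of 0.1 and an unadjusted p of 0.05. Exact permutation tests used all 70 assignments. Intervals are 95% intervals from limma.

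Members and lists were chosen with earlier results of these data known. Named were the 10 miRNAs with the lowest delta Ct, the 5 smallest and 5 largest spreads, those with an unadjusted p below 0.05 (up to 10 per reference), listed families and markers, and 3 miRNAs on each side of the limit. Others were named after their values were seen. An older unstarred assay name was taken as the major arm. Clusters joined miRNAs within 10 kb. Alternatives were the deposited delta Ct, undetermined wells at 40, complete miRNAs only, an intensity trend, the F-test of the study's methods with residuals redrawn within groups (65536 combinations), other references, blocks, single studies, other Ct limits and leaving out each animal. The programs were tested on simulated data. Between 300 and 361 mouse assays were read per animal, and the number of animals limits the precision.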

Additional observations from a re-analysis of the deposited data

Results flagged for a closer look

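In the 4 hypothyroid livers miR-192 had 1 animal far from the rest. Hypothyroid animal 3 had a delta Ct against U6 of 3.03, and the other 3 had 3.56 to 3.67. Its gap to the nearest animal, divided by the range of the group, was 0.8324, above Dixon's 95% limit for 4 values.

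In the 4 controls miR-509-3p was read at a delta Ct of 10.09 in control 3 and between 11.51 and 11.59 in the others, with a ratio of 0.9505.

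In hypothyroid livers miR-15b was read at 9.23 in animal 4 and between 7.34 and 7.43 in the others, with a ratio of 0.9517. Of 60 groups examined in this way 3 passed the limit, or 5%, which is the share that chance gives.

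The change of miR-20b against the mean of the well-read miRNAs differed between the studies by 2.98 on the log2 scale, and the treatment by study term of limma gave an adjusted p of 0.0875. Study 2 held 2 of the 4 animals of each group, and both of its hypothyroid animals showed the shift.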

How the results depend on the processing

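Against either reference, 0 well-read miRNAs had an adjusted p below 0.1 in the comparison of the groups under all alternatives run. The count at an unadjusted p below 0.05 was less stable. Brackets give the count over all miRNAs tested, which also moved. Against U6 it was 4 (22 of 336). It became 7 with miRNAs read in all 8 animals only (15 of 252) and 10 with an intensity trend in limma (20 of 336). With study as a block it was 17 (33 of 335), and with run day as a block 0 (9 of 314). It was 2 in study 1 (19 of 297) and 18 in study 2 (32 of 262). With the mean of all miRNAs below 35 cycles as reference it was 10 (27 of 336). The last 10 were all lower in hypothyroid livers, whereas the 4 against U6 were all higher. Leaving out 1 animal gave 0 to 14, with 1 without control 2 (9 of 324) and 2 without control 3 (14 of 330). It was 14 without hypothyroid animal 2 (28 of 314), 0 without animal 3 (13 of 326) and 11 without animal 4 (35 of 331). Against the mean of the well-read miRNAs it was 5 (17 of 336). It became 8 with the deposited delta Ct (18 of 498) and 8 with undetermined wells at 40 cycles (27 of 517). It was 9 with complete miRNAs only (13 of 252) and 14 with an intensity trend (22 of 336). With study as a block it was 9 (26 of 335), and with run day as a block 0 (9 of 314). It was 23 in study 2 (39 of 262) and 2 with the median as reference (15 of 336). Leaving out 1 animal gave 0 to 19. It was 3 without control 1 (14 of 328), 0 without control 2 (9 of 324) and 0 without control 3 (12 of 330). It was 1 without control 4 (13 of 322), 19 without hypothyroid animal 2 (33 of 314) and 1 without hypothyroid animal 3 (15 of 326). In place of U6, the other endogenous controls, which include Y1 on card A, gave a median change of -0.0706. The mean of all miRNAs below 35 cycles gave -0.14. The count of intervals between -1 and 1 was 68 against U6, 25 with run day as a block, 35 in study 1, 10 in study 2, and between 41 (without control 3) and 71 when 1 animal was left out, with 45 without hypothyroid animal 2. It rose to 86 with the other endogenous controls, 79 with complete miRNAs only and 77 with the mean of all miRNAs below 35 cycles. With an intensity trend it was 76, with study as a block 75 and with the deposited delta Ct 74. With the mean of the well-read miRNAs it was 87, 56 with run day as a block, 33 in study 1 and 39 in study 2, and 70 to 97 when 1 animal was left out. There it rose to 98 with an intensity trend, 96 with complete miRNAs only, and 94 with study as a block or the deposited delta Ct. With undetermined wells at 40 cycles 0 well-read miRNAs had an adjusted p below 0.1 for the difference between studies against the mean. The causes of these shifts were not tested.

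With replicate number as a block, the count against U6 was 8 (23 of 323 tested) and that against the mean 4 (20 of 323). Animals with the same number did not deviate together (correlations of 0.20, -0.10, 0.31 and -0.10 for numbers 1 to 4), so the numbers were not taken to pair the animals. Of 180 recomputations of the 9 changes with an unadjusted p below 0.05, all kept their direction, 80 stayed below 0.05 and 100 did not. Of 940 recomputations of the other 47 changes, 892 moved by less than 1 pooled SD.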
